A study of Mus musculus with 12 samples.

Results

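The genes described here are 4835 long noncoding RNA (lncRNA) genes of the mouse that lie antisense to protein-coding genes. They were chosen from the gene annotation the authors deposited, on the mm9 genome build, as catalogue genes known only by a number whose span overlaps a coding gene on the opposite strand and none on their own strand. They make up 4835 of 57683 genes in that annotation and of its 36991 numbered lncRNA genes, and they face 3171 coding partners. Where a gene faces several coding genes, the partner is the coding gene with the longest overlap, and 4554 of the 4835 face only 1. The libraries came from hearts of wild-type female FVB/NJ mice aged 12 weeks, an inbred strain, and the labels name no transgene or agent in either group. Collagenase perfused through the coronary vessels of 3 hearts freed the cells, and gravity parted the large contractile cardiomyocytes from the nonmyocytes. Cardiomyocyte RNA was taken at once from the fresh cells, whereas the nonmyocytes first grew in dishes, through a number of passages on which the labels differ, into a culture of mainly fibroblasts. Cell type and time in culture therefore cannot be told apart. Polyadenylated RNA gave 3 libraries per fraction, and small RNA gave another 3 per fraction. Nothing states that each library is a separate mouse, so p-values measure the spread between libraries, which may be partly technical.

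Antisense lncRNA genes are transcribed from the DNA strand opposite to a coding gene. Such transcripts are known to act in several ways, among them by transcription through the promoter of the partner, by binding chromatin proteins, by pairing with the sense RNA, or as precursors of microRNAs. In the heart, transcripts antisense to the myosin heavy chain genes are known from work on the switch between fetal and adult myosin, and imprinted loci carry long antisense transcripts that silence neighbouring genes on the paternal chromosome. The polyadenylated RNA libraries do not keep the strand, so a read from an intron of the partner and a read from an antisense exon lying in that intron cannot be told apart.

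Some of these genes hold microRNA precursors in their exons, on the same strand. MicroRNAs are short RNAs that lower the output of messenger RNAs by pairing through their seed, bases 2 to 8. The deposited small RNA table lists 14 mature arms inside exons of 8 of the antisense genes, and 12 of the 14 had an entry in the RefSeq sequences of build GRCm38.p6. The 7 below were picked with their values known and are written 5′ to 3′ with the seed in capitals. They include miR-130a-3p and miR-451a, which were not called between fractions. They leave out miR-130a-5p and miR-214-5p, which were called lower in cardiomyocytes. The 12 sequences have 12 different seeds, so no pair of arms shares one.
miR-130a-3p, in n287443 opposite Ypel4: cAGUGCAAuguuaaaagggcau
miR-199a-3p, in n413865 opposite Dnm3: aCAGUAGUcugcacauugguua
miR-199a-5p, in n413865 opposite Dnm3: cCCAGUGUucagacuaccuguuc
miR-214-3p, in n413865 and n271629 opposite Dnm3: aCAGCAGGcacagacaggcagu
miR-215-5p, in n295857 opposite Iars2: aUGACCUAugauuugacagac
miR-433-3p, in n289221 and n343021 opposite Rtl1: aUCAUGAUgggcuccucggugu
miR-451a, in n265135 opposite Eral1: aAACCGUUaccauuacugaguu

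Total counts of the polyadenylated RNA libraries ran from 5956831 to 26851830, with cardiomyocyte library 1 the smallest. The 8 cardiomyocyte markers fixed for the check summed to 124444 to 166413 CPM (counts scaled to a common library size, so that libraries of unequal depth compare) in cardiomyocytes and 894 to 1191 CPM in nonmyocytes. The 8 fibroblast markers summed to 302 to 424 CPM against 11700.3 to 13646 CPM. The 7 endothelial markers summed to 359.8 to 755 CPM in cardiomyocytes against 77.3 to 88.5 CPM, and 1 of them stood at 0 in nonmyocytes. The 4 erythroid markers summed to 11.9 to 599 CPM against 0.776 to 2.61 CPM, 1 at 0 in nonmyocytes. The 6 smooth muscle and pericyte markers summed to 433 to 657 CPM against 6265 to 7822 CPM. Of these 6, 4 were called lower in cardiomyocytes and 2 were called higher. The macrophage markers summed to 42.4 to 49.4 CPM against 93.5 to 105 CPM, and the 5 epicardial markers to 9.43 to 17.6 CPM against 27.1 to 34.2 CPM. The part of these other cell types in the results was not tested, and in such bulk samples fewer cells of a type and less RNA per cell cannot be told apart.

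The antisense genes fell into 4 arrangements. Most, 2652, were nested inside their partner, 1257 overlapped it head to head at the 5′ ends, 767 overlapped it tail to tail at the 3′ ends, and 159 held the whole partner inside their own span. Their median exon length was 1542 bases, and 43.0% had a single exon. In the head-to-head pairs the antisense gene started a median of 666 bases inside the partner (quartiles 358 and 1399), and 65.3% of the starts lay within 1000 bases of the partner's start. In 607 of the 1257, or 48.3%, an antisense exon covered the whole 300-base window from 250 bases before to 50 bases after the partner's start.

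Whether a gene had a count went with how much of it other genes overlap. At least 1 count was found for 2598 of the 4835, or 53.7%. The share was 59.2% among genes with no exon base in another gene, 76.8% where up to 25% of the exon bases were shared, 39.5% where more than 75% but not all were shared, and 0 of 801 where every exon base was shared. Of those 801, 86 lay wholly in exons of the partner, and 304 had no base in partner exons and were covered by exons of other genes. The partners were touched in the same way: 41 of the 3171 partners had every exon base shared, and all 41 stood at 0 in all 6 libraries. Atp2a2, the calcium pump of the sarcoplasmic reticulum, was among them. The 0 of a fully shared gene is therefore no measurement of its RNA.

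**Figure D1:**
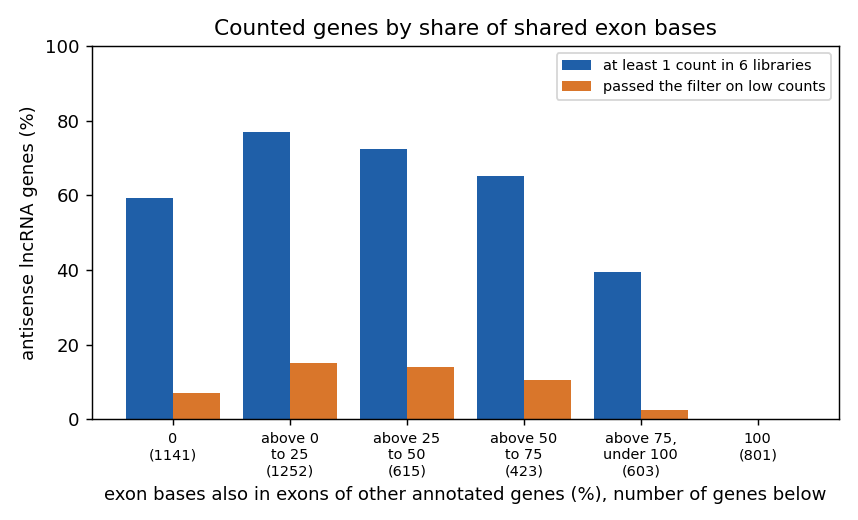
Share of the 4835 antisense lncRNA genes with at least 1 count in the 6 polyadenylated RNA libraries (blue) and share that passed the filter on low counts (orange), by the percent of exon bases that also lie in exons of other annotated genes; the number of genes stands below each bin. Both shares are highest where up to 25% of bases are shared (76.8% with a count) and 0 where all are shared.

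The comparison of fractions asks which antisense lncRNA genes set the muscle cells apart from the nonmyocytes. Of the 4835 genes, 415 (8.58%) passed the filter on low counts. Every log2 fold change below is cardiomyocyte over nonmyocyte and carries its standard error. By edgeR's quasi-likelihood test with Benjamini-Hochberg adjusted p under 0.05, 138 were higher in cardiomyocytes, 85 were lower and 192 were not called. Over all 14734 genes tested, 31.6% were higher and 32.1% lower, or 63.7% either way. Over all 2729 numbered lncRNA genes tested, 31.6% were higher and 19.2% lower, or 50.8% either way. The 138 make up 33.3% and the 85 make up 20.5% of the 415, close to the shares of lncRNA genes at large. Values of the fractions did not overlap for 254 of the 415, or 61.2%, against 70.4% of all genes tested. With scaling by library totals alone, which moved the median of all genes by -0.68 on the log2 scale, the calls became 98 higher and 125 lower. Without cardiomyocyte library 1, when 532 were tested, 168 were higher and 134 lower.

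The share of all counts that fell on antisense genes was the higher in each cardiomyocyte library. Cardiomyocyte libraries 1 to 3 gave them 0.569%, 0.458% and 0.562% of all counts, and nonmyocyte libraries 1 to 3 gave them 0.289%, 0.322% and 0.293%. The means were 0.530 ± 0.0622% and 0.301 ± 0.0179% (SD, n = 3), and the fractions did not overlap (exact permutation test, two-sided, p = 0.1, the smallest that 3 against 3 can give). Of the counts of all numbered lncRNA genes they took 17.9 ± 1.47% and 9.995 ± 0.958%.

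A pair of short genes on chromosome 16 held 28.9% to 49.8% of all antisense counts in a library. The first, n264818 (chr16:35966838-35983316, minus strand), has 406 exon bases and overlaps the 3′ end of Parp9, an ADP-ribosyltransferase of the interferon response. It stood at 1505, 1661 and 2418 CPM in cardiomyocyte libraries 1 to 3 and at 285, 486 and 369 CPM in nonmyocyte libraries 1 to 3. All 3 cardiomyocyte values lay above all 3 nonmyocyte values, with a log2 fold change of 2.29 ± 0.24 (edgeR adjusted p = 2.32e-06), while Parp9 itself was not called (0.10 ± 0.34). The second, n265082 (chr16:11143998-11144408, plus strand), is nested in Zc3h7a, a zinc finger gene, and carries the miR-689-2 precursor. Its levels were 1260.1, 1292 and 1137 against 389, 435 and 353 CPM, a log2 fold change of 1.65 ± 0.16 (edgeR adjusted p = 1.28e-06). Neither shares an exon base with another gene of the annotation, and per kb of exon they exceeded their partners in every library, n264818 with a mean of 4584 CPM per kb against 2.98 for Parp9 in cardiomyocytes. Near-identical copies of these short sequences elsewhere in the genome were not looked for. Without n264818 the share of all counts was 0.383 ± 0.0510% in cardiomyocytes and 0.254 ± 0.00677% in nonmyocytes (SD, n = 3). The share without both genes was not tested.

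Each antisense gene was then set against its partner in the same libraries. In 376 pairs both genes passed the filter. The term tested was the log2 fold change of the antisense gene minus that of its partner. It was called higher in 55 pairs (14.6%) and lower in 34 (9.04%), and it was not called in 287. The 2 genes of a pair had the same sign in 269 of 376 pairs, or 71.5%. The libraries keep no strand, so reads from introns of the partner cannot be told apart from antisense reads. The part of such reads in the shared direction, here and in the single pairs below, was not tested. Across pairs, which are not independent and share libraries, Pearson's r between the fold changes was 0.756. Where both genes were called, 145 pairs moved in the same direction and 16 in opposite directions, and the difference was called in all 16. Same-sign shares were 74.1% of 201 nested pairs, 73.9% of 111 head-to-head pairs and 57.4% of 61 tail-to-tail pairs, and these shares were not tested against each other. Among pairs whose partner was higher in cardiomyocytes, 86 of 147 antisense genes were higher too and 4 were lower. Among pairs whose partner was lower, 59 of 106 were lower and 12 higher. Without cardiomyocyte library 3 the calls of the difference were 34 and 20, without cardiomyocyte library 1, when 489 pairs were tested, they were 66 and 59, and without nonmyocyte library 2 the number lower was 21.

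**Figure D2:**
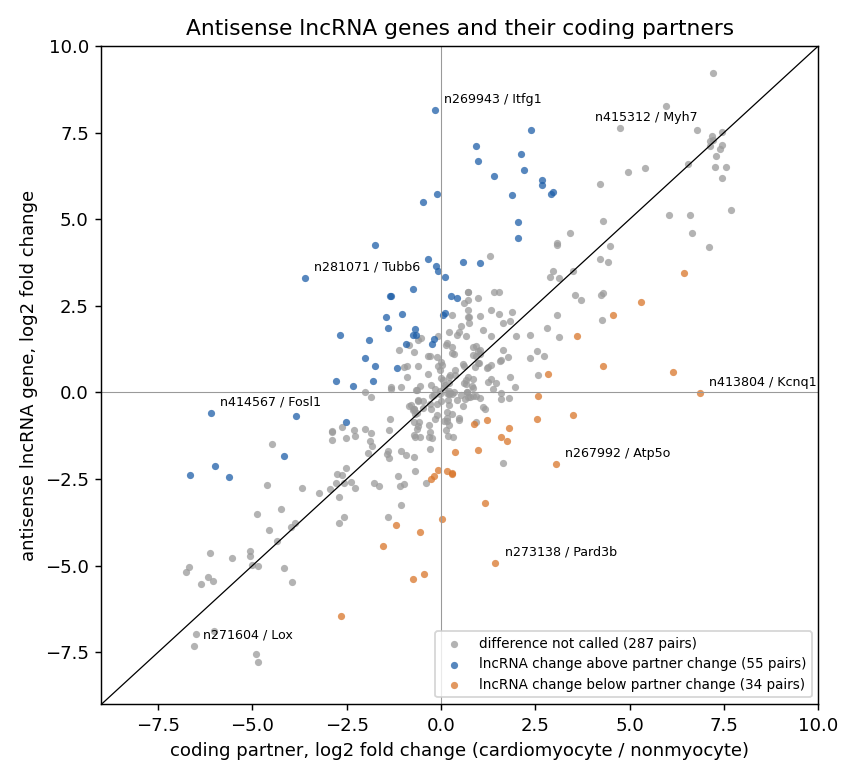
Log2 fold change of the antisense lncRNA gene (vertical axis) against that of its coding partner (horizontal axis) for the 376 tested pairs, cardiomyocyte over nonmyocyte; the black line marks equal change. The 287 grey pairs were not called different, the 55 blue pairs lie above the line and the 34 orange pairs below it.

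Partners of the contractile apparatus came first. The list of 44 sarcomere and Z-disc genes had 14 antisense genes opposite 7 of them. Of the 14, 9 had a count and 3 were tested, and all 3 were higher in cardiomyocytes. By comparison, 138 of the 415 tested antisense genes and 31.6% of all genes tested were higher. This list and those below were chosen with earlier results of these data known. Opposite Myh7, the slow beta myosin heavy chain, n415312 (chr14:55587623-55593186, plus strand) overlaps the 3′ end through 5 exons, and 56.1% of its exon bases are shared. It stood at 396, 279.9 and 289.7 CPM in cardiomyocyte libraries 1 to 3 and at 1.79, 1.93 and 1.55 CPM in nonmyocyte libraries 1 to 3. The fractions were far apart, with a log2 fold change of 7.51 ± 0.25 (edgeR adjusted p = 1.18e-10). Myh7 stood at 3124, 2973 and 2732 against 18.5, 16.9 and 15.4 CPM, a log2 fold change of 7.44 ± 0.21, and the difference of 0.05 was not called (edgeR adjusted p = 0.94). Per kb of exon the antisense gene reached 386 CPM and Myh7 350.0 CPM in cardiomyocytes. Per kb of exon not shared with another gene these levels were 879.6 CPM for n415312 and 449 CPM for Myh7. A second gene nested in Myh7, n293052 (chr14:55598147-55610438, plus strand), was at 101, 69.8 and 102 against 0.672, 0.676 and 0.543 CPM (7.15 ± 0.29, edgeR adjusted p = 2.98e-10).

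Opposite Myh6, the alpha myosin motor that dominates in adult mice, the single exon of n279092 (chr14:55572562-55573802, plus strand) held 124, 69.8 and 112 CPM in cardiomyocytes and 1.04, 0.387 and 0.31 CPM in nonmyocytes. Its log2 fold change was 7.39 ± 0.39 (edgeR adjusted p = 3.12e-09) beside 7.19 ± 0.27 for Myh6, which stood at 47325, 67942 and 64766 against 472, 406 and 356 CPM. The difference of 0.30 was not called (edgeR adjusted p = 0.969).

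**Figure D3:**
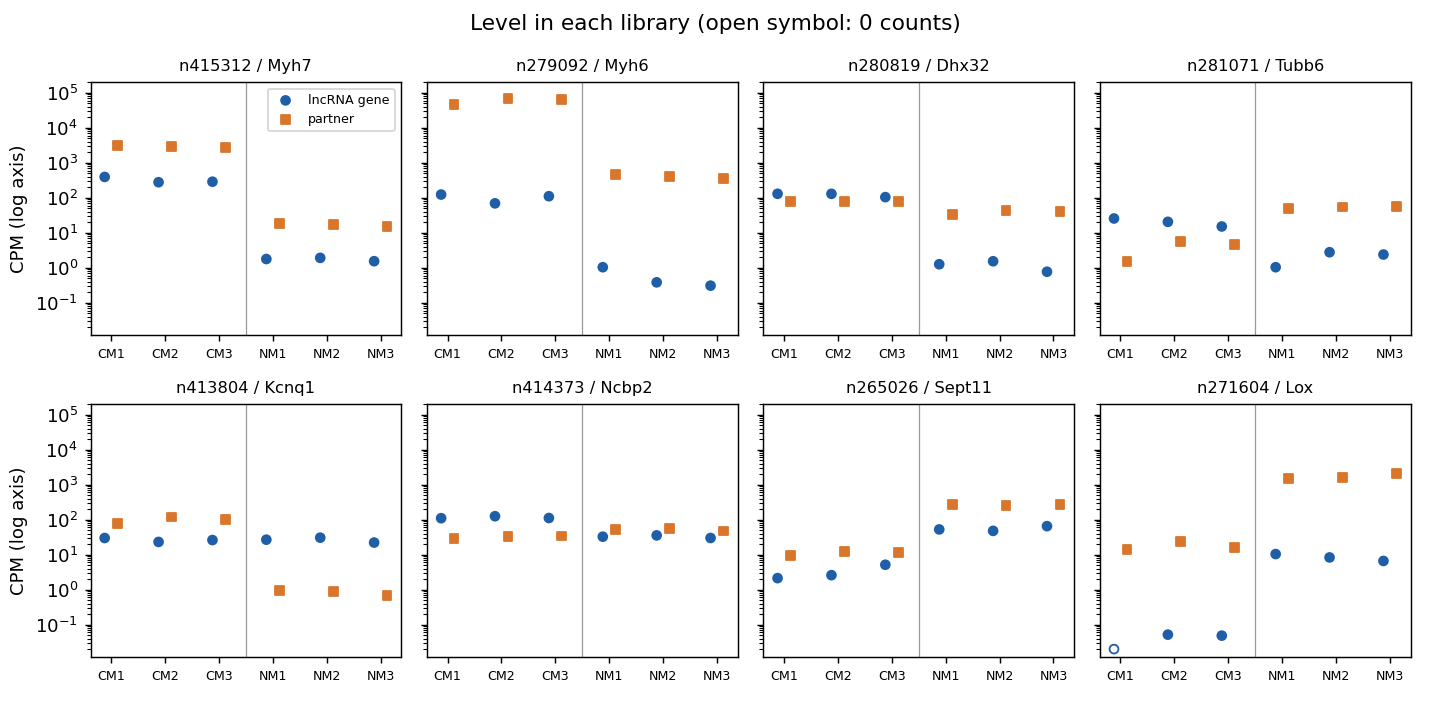
Level in each library (CPM, log axis) of 8 antisense lncRNA genes (blue circles) and their partners (orange squares) in cardiomyocyte libraries 1 to 3 (CM1 to CM3) and nonmyocyte libraries 1 to 3 (NM1 to NM3); an open symbol marks 0 counts. The difference between the pair was called for Dhx32, Tubb6, Kcnq1 and Ncbp2 and was not called for Myh7, Myh6, Sept11 and Lox.

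Calcium handling and ion channel genes, which set the beat and the release of calcium, had 30 antisense genes opposite 14 of 45 listed partners. Of these 13 had a count and 6 were tested, with 5 higher in cardiomyocytes and 1 not called. Among all genes tested 31.6% were higher. Opposite Pln, the inhibitor of the calcium pump, n289985 (chr10:53062246-53064040, minus strand) stood at 66.8, 60.1 and 57.9 against 0.522, 0.483 and 0.155 CPM. Its change of 7.29 ± 0.33 (edgeR adjusted p = 7.93e-10) sat beside 7.20 ± 0.31 for Pln. At the 3′ end of Trdn, which anchors the calcium release channel, n416530 (chr10:32942150-32976163, minus strand) stood at 37.2, 38.6 and 44.1 against 0.373, 0.0966 and 0.388 CPM, a log2 fold change of 7.03 ± 0.37 (edgeR adjusted p = 3.09e-09). All cardiomyocyte values of both genes were far above all nonmyocyte values.

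Lower levels were found at other channel genes. n279026 (chr13:12198003-12200591, plus strand) starts inside Ryr2, the calcium release channel, and held 10.7, 2.18 and 4.27 CPM in cardiomyocytes and 0 counts in the 3 nonmyocyte libraries, at least 50.1-fold higher when the floor of 3 counts is taken over the nonmyocyte group (edgeR adjusted p = 8.26e-05). n263902, at the start of Kcnj3, a subunit of the acetylcholine-gated potassium channel, held 2.52, 6.84 and 7.03 CPM in cardiomyocytes against 1 count in all nonmyocyte libraries (edgeR adjusted p = 1.21e-05). The ratio of its summed counts, scaled to library size, was 236 with an exact 95% interval of 41.9 to 9337, which covers counting error only. n283980, inside Atp2a2, held 96 counts in cardiomyocytes and 0 in nonmyocytes (edgeR adjusted p = 0.00023), with 83.4% of its exon bases shared. Its partner is the calcium pump gene named above that stood at 0.

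Kcnq1, a potassium channel subunit that repolarises the heart muscle cell, was the exception on this list. The antisense gene n413804 (chr7:150399015-150482452, minus strand) is a single exon of 83438 bases in an imprinted domain. It stood at 29.8, 23.0 and 26.1 CPM in cardiomyocytes and at 26.7, 30.5 and 22.1 CPM in nonmyocytes, so the fractions overlapped (log2 fold change -0.01 ± 0.21, edgeR adjusted p = 0.962). Kcnq1 stood at 79.4, 119 and 99.2 against 0.97, 0.87 and 0.698 CPM, a log2 fold change of 6.86 ± 0.27. The difference between the pair was -6.85 ± 0.53 (edgeR adjusted p = 1.28e-06), the lowest of the pairs named by the rule. Of the 13 antisense genes opposite Kcnq1, 9 had every exon base shared and 4 had a count. With scaling by library totals the log2 fold change of n413804 was -0.68 and was called (edgeR adjusted p = 0.0165).

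Energy metabolism partners had 26 antisense genes opposite 15 of 79 listed genes, 21 of them with a count and 3 tested, all higher in cardiomyocytes. Among all genes tested 31.6% were higher. n266446, nested in Acacb, the acetyl-CoA carboxylase that restrains fatty acid oxidation, held 3.87, 1.86 and 2.86 CPM in cardiomyocytes and 0 counts in nonmyocytes, at least 31.1-fold higher (edgeR adjusted p = 0.000117). n284921, nested in Bdh1, the ketone body dehydrogenase, stood at 1.16, 2.38 and 2.71 against 0.224, 0.0966 and 0 CPM (4.20 ± 0.88, edgeR adjusted p = 0.00102). n269862, at the start of Ogdh of the citric acid cycle, stood at 1.94, 1.61 and 2.28 against 0.0746, 0 and 0.0776 CPM (4.95 ± 0.89, edgeR adjusted p = 0.000296). All 3 were rare, at 3.87 CPM or less in every library, while their partners stood in cardiomyocytes at 1420.1, 1299 and 1267 CPM (Acacb), 504, 491 and 432 CPM (Bdh1) and 4003, 4882 and 4392 CPM (Ogdh).

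Among cardiac transcription factors, 9 antisense genes faced 5 listed partners and 2 were tested. n271211 (chr1:191994174-192041155, plus strand), at the start of Prox1, a homeobox factor of the myocardium, held 2.71, 1.35 and 1.6 CPM in cardiomyocytes and 0 counts in nonmyocytes, at least 19.8-fold higher (edgeR adjusted p = 0.000346). n295546, at the start of Tead1, an effector of Hippo signalling, was not called (1.58 ± 0.85, edgeR adjusted p = 0.121), although it was called without nonmyocyte library 1 (3.48, edgeR adjusted p = 0.0118).

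On the nonmyocyte side, genes of the extracellular matrix had 35 antisense genes opposite 19 of 84 listed partners, 23 with a count. All 8 that were tested were lower in cardiomyocytes, with a median log2 fold change of -4.68. The partners of all 8 were lower as well. By comparison, 85 of the 415 tested antisense genes and 32.1% of all genes tested were lower. This list too was chosen with earlier results of these data known. n271604, which starts inside Lox, the enzyme that cross-links collagen and elastin, held 10.4, 8.31 and 6.6 CPM in nonmyocytes and 0, 0.0518 and 0.0485 CPM in cardiomyocytes. Its 310 nonmyocyte counts against 2 give a scaled ratio of 191 with an exact 95% interval of 52.4 to 1583 (edgeR adjusted p = 3.88e-07). n289759 (chr16:85900993-85904237, plus strand), at the start of Adamts5, a protease of cartilage and heart valve matrix, stood at 15.2, 13.5 and 12.4 CPM in nonmyocytes and 0, 0.777 and 0.533 CPM in cardiomyocytes (-4.64 ± 0.50, edgeR adjusted p = 3.14e-06).

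The other matrix partners of the 8 were Ltbp2, Tnc, Timp2, Loxl2 and, with 2 antisense genes, Col5a1, and their antisense genes held 0.87 to 4.55 CPM in each nonmyocyte library. Opposite Loxl2, a relative of Lox, n286004 fell less than its partner, at -2.45 ± 0.75 beside -5.61 ± 0.25. The difference of 3.14 ± 0.76 was called (edgeR adjusted p = 0.00832), but not without cardiomyocyte library 3 (edgeR adjusted p = 0.176). The fold change of n286004 itself was not called without cardiomyocyte library 2 (edgeR adjusted p = 0.0542) or nonmyocyte library 3 (edgeR adjusted p = 0.0755).

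Signalling, cytoskeletal and regulatory partners also faced antisense genes that were lower in cardiomyocytes. n267634 (chr14:47007227-47008953, plus strand), nested in Bmp4, a secreted growth factor, stood at 0.775, 0.57 and 0.291 CPM in cardiomyocytes and 16.2, 10.4 and 14.4 CPM in nonmyocytes, with no exon base shared. Its log2 fold change of -4.79 ± 0.45 (edgeR adjusted p = 8.27e-07) sat beside -5.54 ± 0.29 for Bmp4. n265026 (chr5:93600783-93602348, minus strand), nested in Sept11, a septin of the cytoskeleton, stood at 2.13, 2.59 and 5.14 against 52.5, 47.7 and 65.1 CPM, a log2 fold change of -3.98 ± 0.31 (edgeR adjusted p = 1.47e-07) beside -4.56 ± 0.18. n416957 (chr10:22535554-22543136, plus strand), which holds Tcf21, the transcription factor of cardiac fibroblasts, inside its span, stood at 0, 0.363 and 0.0485 against 1.42, 3.19 and 1.55 CPM (-3.52 ± 0.88, edgeR adjusted p = 0.00356). n296777, nested in Cdkn1a, the cell cycle inhibitor p21 and the only tested case among 17 antisense genes of cell division partners, stood at 0.969, 0.311 and 0.097 against 3.28, 6.18 and 5.82 CPM (-3.88 ± 0.71, edgeR adjusted p = 0.000369).

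Of 29 antisense genes opposite mesenchymal transcription factors 3 were tested, and only n416957 was called. The one opposite Zeb2, a repressor of epithelial genes, was not (log2 fold change -0.99 ± 0.78, 89.9% of exon bases shared). Hox genes, which pattern the body axis, had 19 antisense genes opposite 6 partners. A count was found for 7 and 1 was tested, n284716 opposite Hoxb2, at 1.55, 0.259 and 0.194 against 1.34, 1.35 and 1.71 CPM, which was not called (-1.50 ± 0.83, edgeR adjusted p = 0.133). Without cardiomyocyte library 1 it was (-2.63, edgeR adjusted p = 0.00788).

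Imprinted partners, expressed from the chromosome of 1 parent, had 87 antisense genes opposite 16 of 52 listed genes. A count was found for 27, and 7 were tested, with 6 higher in cardiomyocytes and n413804 opposite Kcnq1 not called. Of the 6, 5 lie inside Igf2r, the receptor that clears insulin-like growth factor 2, and as neighbours in 1 locus they are not independent cases. Igf2r had 15 antisense genes, and the other 10, which overlap it head to head and run past its start, had every exon base shared and 0 counts. Nearest its start, n274916 (chr17:12959884-12960936, plus strand) stood at 70.3, 6.89 and 15.5 CPM in cardiomyocytes and 6.64, 2.32 and 2.87 CPM in nonmyocytes (2.91 ± 0.82, edgeR adjusted p = 0.0117). At the far end, n288736 (chr17:12941160-12944859, plus strand) stood at 29.6, 9.01 and 14.8 against 3.81, 4.45 and 3.41 CPM (2.17 ± 0.42, edgeR adjusted p = 0.000507). The 3 between them, n265049, n271784 and n275427, changed by 2.68, 2.39 and 2.91 on the log2 scale. Igf2r itself changed by 0.72 ± 0.17, and the difference was not called for any of the 5.

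Cardiomyocyte library 1 stood apart at this locus. The 5 genes summed to 223 CPM there, whereas libraries 2 and 3 of the same fraction held 34.8 and 61.2 CPM and the nonmyocyte libraries 13.2 to 20.8 CPM. In each of the 5, library 1 was 3.29 to 10.2 times library 2, whereas Igf2r was lowest of the 3 in library 1, at 520.2, 655 and 615 CPM. Among all 415 tested antisense genes, cardiomyocyte library 1 was the highest of the 3 for 170. Without library 1 the log2 fold changes of the 5 were 1.51 to 1.69, and n271784 was no longer called (edgeR adjusted p = 0.0543). n271784 was also not called without nonmyocyte library 1 (edgeR adjusted p = 0.0504) or with library totals (0.0596), and n275427 was not called without nonmyocyte library 3 (0.0528) or with no filter (0.111). The call of n274916 was lost without nonmyocyte library 1, 2 or 3 (edgeR adjusted p 0.0642 to 0.135), with no filter (0.167) and in limma voom (0.116).

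**Figure D4:**
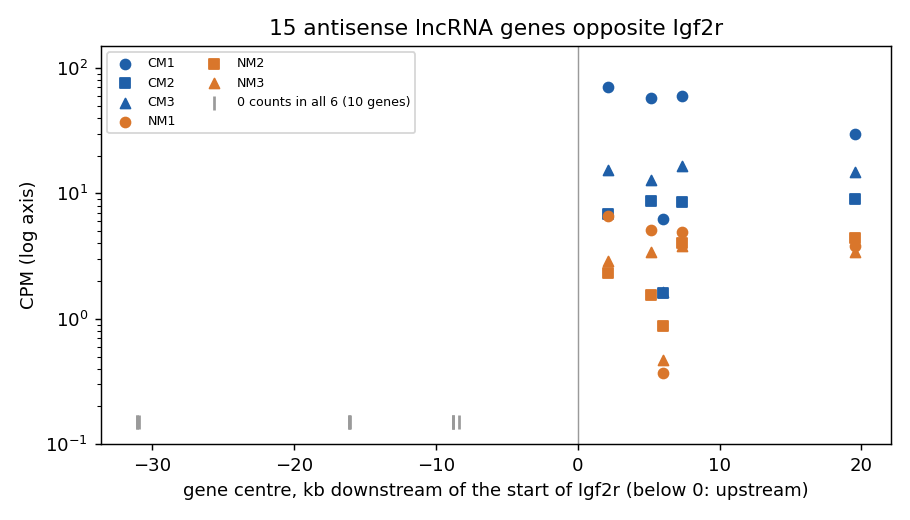
Level (CPM, log axis) of the 15 antisense lncRNA genes opposite Igf2r by the position of the gene's centre relative to the start of Igf2r (kb, above 0 inside Igf2r and below 0 upstream of it), in cardiomyocyte (CM, blue) and nonmyocyte (NM, orange) libraries 1 to 3; grey ticks mark the 10 genes at 0 counts, all of whose exon bases are shared. Cardiomyocyte library 1 is highest at all 5 counted genes, and all cardiomyocyte values lie above all nonmyocyte values of the same gene.

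A further imprinted partner, Ube3a, a ubiquitin ligase, faced 23 antisense genes. Of these 13 had every exon base shared and 9 had a count. Only n264718 was tested, at 2.71, 4.56 and 4.61 against 0.597, 1.84 and 1.09 CPM (1.79 ± 0.54, edgeR adjusted p = 0.0108), with 51.3% of its exon bases shared. It was not called without cardiomyocyte library 2 (edgeR adjusted p = 0.0501) or with library totals (0.0929).

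Some antisense genes were higher in cardiomyocytes by more than their partner. n280819 (chr7:140939282-140944721, plus strand), nested in Dhx32, an RNA helicase gene, stood at 131, 130.4 and 105 CPM in cardiomyocytes and 1.27, 1.55 and 0.776 CPM in nonmyocytes. Dhx32 stood at 78.5, 78.3 and 79.7 against 33.6, 44.7 and 41.8 CPM. The log2 fold changes were 6.68 ± 0.27 and 0.98 ± 0.17, and the difference of 5.70 ± 0.53 was called (edgeR adjusted p = 6.45e-06). Per kb of exon, n280819 reached 166 CPM in cardiomyocytes and Dhx32 18.9 CPM, an order that was turned round in nonmyocytes at 1.62 against 9.6.

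n282404 (chr6:145130794-145136091, plus strand), nested in Casc1, stood at 51.3, 58.6 and 41.1 against 0.448, 0.387 and 0.233 CPM, with Casc1 at 1.16, 0.829 and 1.21 against 0.522, 0.0966 and 1.01 CPM and a difference of 6.06 ± 0.92 (edgeR adjusted p = 0.000343). n269943 (chr8:88254714-88288994, plus strand), nested in Itfg1, held 6.78, 10.9 and 12.9 CPM in cardiomyocytes and 1 count in all nonmyocyte libraries, a scaled ratio of 416 with an exact 95% interval of 74.3 to 16459.6. Itfg1 stood at 7.75, 12.7 and 13.2 against 8.21, 16.4 and 14.0 CPM (-0.17 ± 0.32, not called), and the difference of 8.31 ± 0.92 was the highest of the pairs named by the rule (edgeR adjusted p = 1.83e-05). n295545, at the start of 1600029D21Rik on chromosome 9, stood at 54.2, 54.3 and 37.9 against 0.373, 0.29 and 0.0776 CPM. 1600029D21Rik stood at 6.01, 1.92 and 4.31 against 0.373, 1.06 and 0.854 CPM and was itself higher (2.39 ± 0.63, edgeR adjusted p = 0.00492), with a difference of 5.24 ± 0.90 (edgeR adjusted p = 0.000934).

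Tecr, the reductase that ends each round of very long chain fatty acid synthesis, held 2 tested antisense genes with no shared exon base, which were singled out after their values were seen. n269826 (chr8:86099942-86109818, plus strand) stood at 111, 72.0 and 95.6 against 1.72, 1.45 and 1.16 CPM, and n269347 (chr8:86110218-86112165, plus strand) at 70.7, 32.4 and 63.2 against 0.746, 1.35 and 0.31 CPM. Tecr changed by 2.68 ± 0.20, and the differences were 3.31 ± 0.49 (edgeR adjusted p = 0.000328) and 3.47 ± 0.62 (edgeR adjusted p = 0.00101). n413452 (chr2:120358639-120365582, plus strand), nested in Zfp106, an RNA-binding zinc finger gene needed by motor neurons and muscle, stood at 77.7, 157 and 151 against 2.61, 2.32 and 2.41 CPM, with 71.1% of its exon bases shared. Its change of 5.71 ± 0.30 exceeded that of Zfp106, 2.91 ± 0.24, by 2.78 ± 0.47 (edgeR adjusted p = 0.000911).

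In 16 pairs the antisense gene and its partner were called in opposite directions. n414373 (chr16:31947136-31948607, minus strand) and Ncbp2, the small subunit of the nuclear cap-binding complex, start 8 bases apart. The antisense gene stood at 109.9, 125 and 111 CPM in cardiomyocytes and 32.5, 35.5 and 29.9 CPM in nonmyocytes, while Ncbp2 stood at 28.3, 33.5 and 34.2 against 51.4, 55.9 and 47.5 CPM. Neither gene's fractions overlapped, and the difference was 2.51 ± 0.45 (edgeR adjusted p = 0.00112). n281223 (chr11:12214516-12237133, plus strand), nested in Cobl, an actin nucleator, has no shared exon base and stood at 7.56, 10.6 and 11.4 against 3.28, 2.42 and 3.8 CPM. Cobl went the other way, at 9.49, 11.7 and 10.1 against 60.7, 64.9 and 74.6 CPM, and the difference was 4.32 ± 0.51 (edgeR adjusted p = 3.63e-05).

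n281071 overlaps the 3′ end of Tubb6, a beta tubulin, and had the largest opposite difference of those named. It stood at 25.8, 20.7 and 15.2 against 1.04, 2.8 and 2.41 CPM and Tubb6 at 1.55, 5.7 and 4.75 against 48.4, 55.1 and 55.6 CPM, a difference of 7.10 ± 0.71 (edgeR adjusted p = 9.91e-06). Of its exon bases 72.4% are shared, as are 81.9% of those of Tubb6. n281071 starts 1757 bases after the 3′ end of Afg3l2, a mitochondrial protease gene on its own strand. Afg3l2 was higher in cardiomyocytes too, by 2.54 on the log2 scale. n291027, opposite Topors, a ubiquitin and SUMO ligase, stood at 9.69, 26.1 and 22.2 against 7.54, 9.28 and 5.67 CPM beside a partner at 16.9, 16.9 and 19.1 against 34.0, 32.6 and 33.8 CPM. Its difference of 2.23 ± 0.55 (edgeR adjusted p = 0.00871) was not called when cardiomyocyte library 2 or 3 or nonmyocyte library 3 was left out (edgeR adjusted p 0.0533 to 0.0918), and its fold change was not called with library totals (0.0831).

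The other 4 named by the rule were lower in cardiomyocytes against a partner that was higher. n267992 lies inside Atp5o, a subunit of the mitochondrial ATP synthase, and stood at 0.581, 0.57 and 0.242 against 2.31, 0.87 and 2.41 CPM beside 604, 775 and 649 against 83.6, 83.7 and 76.8 CPM. The difference was -5.12 ± 0.68 (edgeR adjusted p = 0.000117), but the fold change of n267992 alone (-2.07 ± 0.71) lost its call when cardiomyocyte library 2 or 3 or nonmyocyte library 1 or 3 was left out (edgeR adjusted p 0.0593 to 0.128). n273138, nested in Pard3b, a cell polarity gene, stood at 0.194, 0.0518 and 0 against 2.99, 1.35 and 0.776 CPM, with a difference of -6.29 ± 1.07 (edgeR adjusted p = 0.000911). n270325, at the 3′ end of Med26, a Mediator subunit, and n297377, nested in Chrac1, a chromatin remodelling subunit, differed from their partners by -2.76 ± 0.66 and -1.999 ± 0.53 (edgeR adjusted p = 0.00784 and 0.0129). Leaving out cardiomyocyte library 2 or 3 or nonmyocyte library 2 ended the call at n270325 (edgeR adjusted p 0.0518 to 0.0854), and cardiomyocyte library 2 and nonmyocyte library 2 each ended that of its fold change (0.055 to 0.0575). Leaving out cardiomyocyte library 2 or 3 or nonmyocyte library 1 or 3 ended the call at n297377 (0.0562 to 0.113). The fold change of n297377 (-0.79 ± 0.30) was called without cardiomyocyte library 1 but not without any other library (0.0797 to 0.125).

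n414567 (chr19:5453162-5457549, minus strand), which overlaps the 3′ end of Fosl1, an AP-1 transcription factor subunit, stayed near one level while its partner did not. It stood at 32.7, 32.3 and 22.7 CPM in cardiomyocytes and 53.7, 37.8 and 40.6 CPM in nonmyocytes, and Fosl1 at 0.387, 0.259 and 0.242 against 18.8, 14.98 and 23.5 CPM. The difference was 5.42 ± 0.58 (edgeR adjusted p = 1.62e-05). Of exon bases, 62.4% in Fosl1 and 27.4% in n414567 are shared. Its own fold change of -0.60 ± 0.22 (edgeR adjusted p = 0.0281) was not called without cardiomyocyte library 3 or nonmyocyte library 1 or 3 (edgeR adjusted p 0.0665 to 0.202).

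Other antisense genes faced partners with too few counts to test. n269799 (chr14:29842711-29846828, plus strand) lies inside Cacna2d3, a calcium channel subunit that held at most 0.436 CPM in a library and was not tested. It stood at 167, 196 and 214 against 1.12, 1.55 and 1.16 CPM (7.24 ± 0.24, edgeR adjusted p = 1.18e-10). It starts 1645 bases after the 3′ end of Lrtm1, a gene on its own strand whose log2 fold change was 7.21. n286810 (chr10:80657438-80671929, plus strand), at the 3′ end of Atcay, held 876 counts in cardiomyocytes, at 29.1, 19.6 and 16.9 CPM, and 0 in nonmyocytes, at least 237-fold higher (edgeR adjusted p = 1.37e-07). It starts 1709 bases after Dapk3, a kinase gene on its own strand whose log2 fold change was -0.03. n284779 (chr1:40639741-40643686, minus strand), nested in Slc9a4, a sodium-proton exchanger, held 322 counts against 0, at 12.4, 7.04 and 5.91 CPM, at least 87.2-fold higher (edgeR adjusted p = 4.16e-06). Atcay held at most 2.54 CPM and Slc9a4 at most 0.388 CPM in a library, and neither was tested. Of the exon bases of Atcay 53.7% are shared.

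Antisense genes lower in cardiomyocytes stood opposite genes of several kinds. n413609 (chr14:56483147-56493572, minus strand), at the 3′ end of Nynrin, stood at 5.23, 7.1 and 7.51 CPM in cardiomyocytes and 41.1, 36.4 and 43.4 CPM in nonmyocytes (-2.58 ± 0.23, edgeR adjusted p = 5.66e-07), with Nynrin at -2.38 ± 0.41. n413555 (chr10:80144582-80149921, plus strand), at the 3′ end of Mobkl2a, a kinase activator, stood at 0.387, 1.14 and 1.31 against 15.9, 10.4 and 17.3 CPM (-3.77 ± 0.42, edgeR adjusted p = 4.13e-06), with 67.8% of its exon bases shared. n264187 (chr11:48827576-48828287, minus strand), inside the span of the olfactory receptor gene Olfr56, stood at 0.194, 0.518 and 0.582 against 11.9, 11.4 and 6.44 CPM (-4.32 ± 0.48, edgeR adjusted p = 4.4e-06). n287065 (chr1:178764754-178766264, minus strand), nested in Sdccag8, a centrosome gene, stood at 3.1, 0.155 and 0.339 against 12.2, 11.1 and 11.3 CPM and differed from its partner by -3.01 ± 0.93 (edgeR adjusted p = 0.0284). Leaving out any library but cardiomyocyte library 1 ended that call (edgeR adjusted p 0.0716 to 0.214). n293626, nested in Gnal, a G protein subunit, stood at 16.7, 23.6 and 23.7 against 26.2, 37.4 and 39.0 CPM (-0.67 ± 0.23, edgeR adjusted p = 0.0222), a call lost without nonmyocyte library 2 or 3 (0.0792 and 0.095). Gnal was rare, at 0, 0.104 and 0.097 against 0.821, 1.93 and 1.32 CPM (-3.84 ± 0.88). The difference of n293626 from Gnal, 3.21 ± 0.79 (edgeR adjusted p = 0.00846), was not called without cardiomyocyte library 2 or 3 (0.0569 and 0.0713).

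The remaining pairs named for a lower difference were n288056 and n276647, both in Efcab4a, a calcium-binding protein gene, and n296035 at the 3′ end of Panx2, a membrane channel gene. The pair in Efcab4a overlap each other and fell by 2.36 and 2.32 on the log2 scale (standard errors 0.45 and 0.46) beside 0.30 ± 0.31 for Efcab4a, with differences of -2.68 ± 0.65 and -2.73 ± 0.68 (edgeR adjusted p = 0.00832 and 0.00914). The call of the difference ended for n288056 without cardiomyocyte library 3 or nonmyocyte library 3 (0.0854 and 0.0505), and for n276647 without cardiomyocyte library 2 (0.0894). n296035 stood at 5.81, 11.7 and 8.05 against 6.79, 5.70 and 2.72 CPM and was not called (0.77 ± 0.41), although it was called without cardiomyocyte library 1 (0.99, edgeR adjusted p = 0.0157). Panx2 was rare and higher in cardiomyocytes, at 7.17, 2.95 and 1.79 against 0.522, 0 and 0 CPM (4.29 ± 1.02, edgeR adjusted p = 0.00239). The call of the difference between n296035 and Panx2, -3.64 ± 1.10 (edgeR adjusted p = 0.0251), was lost when any library but nonmyocyte library 1 was left out (0.0513 to 0.119).

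Head-to-head pairs share their start region, and 2 promoters are shown. They were picked by level from pairs called in the same direction, with an antisense exon base in the promoter window. Fractions of the antisense gene also had to be without overlap. Of 948 partners in head-to-head pairs, 644 had an entry among the RefSeq promoters of build GRCm38.p6, each 300 bases from 250 before the start. Capitals mark the dinucleotide CG. All promoters of the table, 27025, had a median of 7 CG (quartiles 3 and 20).
Rhob promoter, chr12:8499960-8500259, minus strand: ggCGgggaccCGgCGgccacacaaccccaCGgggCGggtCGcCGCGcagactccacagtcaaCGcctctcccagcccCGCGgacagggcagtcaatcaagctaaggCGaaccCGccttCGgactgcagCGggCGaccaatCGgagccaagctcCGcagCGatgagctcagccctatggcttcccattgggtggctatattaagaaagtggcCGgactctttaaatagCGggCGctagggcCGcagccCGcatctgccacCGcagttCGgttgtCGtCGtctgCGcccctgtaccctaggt
Pla2g6 promoter, chr15:79328322-79328621, minus strand: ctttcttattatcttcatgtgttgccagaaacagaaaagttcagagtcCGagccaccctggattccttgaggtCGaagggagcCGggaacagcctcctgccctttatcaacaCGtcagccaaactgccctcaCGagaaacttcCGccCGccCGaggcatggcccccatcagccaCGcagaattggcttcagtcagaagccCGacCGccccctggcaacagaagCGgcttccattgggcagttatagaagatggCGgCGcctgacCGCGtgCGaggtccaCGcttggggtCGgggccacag

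The Rhob promoter has 29 CG and that of Pla2g6 has 19. Those of Rab20 and Fat4, picked in the same way but not shown, have 16 and 13. On mm9 an antisense exon covers the whole window at Rhob, Pla2g6 and Fat4, but 95 of its 300 bases at Rab20. Over all tested head-to-head genes, 63.8% covered the whole window. n268096 (chr12:8506232-8509364, plus strand), opposite Rhob, a small GTPase of actin and endosome control, starts 206 bases inside it. It stood at 36.6, 74.9 and 50.6 CPM in cardiomyocytes and 21.9, 28.1 and 27.3 CPM in nonmyocytes, and Rhob at 54.6, 103 and 72.6 against 40.5, 40.5 and 48.0 CPM. Both were higher in cardiomyocytes, at 1.08 ± 0.25 (edgeR adjusted p = 0.00197) and 0.84 ± 0.22 (edgeR adjusted p = 0.00491). n295515 (chr15:79158056-79159144, plus strand), opposite Pla2g6, a calcium-independent phospholipase, starts 527 bases inside it and stood at 5.23, 5.28 and 4.27 against 25.1, 13.7 and 15.8 CPM, with Pla2g6 at 26.9, 30.2 and 22.3 against 80.2, 64.0 and 61.1 CPM. Both were lower, at -1.90 ± 0.31 (edgeR adjusted p = 0.000159) and -1.37 ± 0.19 (edgeR adjusted p = 4.18e-05), and the fractions did not overlap for any of these 4 genes. The same direction within each pair, and the lack of overlap of n268096 and n295515, were conditions of the choice.

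Antisense genes lay below their partners in most pairs. Per kb of exon the median antisense level was 8.23% to 11.2% of the partner's across the 6 libraries. The antisense gene was the higher in all 3 cardiomyocyte libraries for 34 of 376 pairs, in all 3 nonmyocyte libraries for 27, and in all 6 for 10.

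Genes just after a coding gene on their own strand were counted apart, since RNA running past a 3′ end could give reads there. Of the 4835, 424 start within 5 kb of such an end, and 91 of these were tested. Among them 43 were called, 33 higher and 10 lower. The upstream gene was called in the same direction for 25, in the opposite direction for 0, and was not called for 12 and not tested for 6. They made up 5 of the 16 opposite pairs and 23 of the 89 pairs with a called difference, and without them 35 pairs were called higher. Their part in the fold changes was not tested further.

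In small RNA, 6 of 11 tested arms inside antisense exons were lower in cardiomyocytes. Library totals ran from 83170 in nonmyocyte library 3 to 6311625 in cardiomyocyte library 3. Of 343 arms tested by edgeR's quasi-likelihood test, 19.0% were higher and 33.8% lower in cardiomyocytes. Of the 11 tested arms in antisense exons 1 was higher, 6 were lower and 4 were not called, and the other 3 arms were too rare to test. The lower arms of miR-199a and miR-214 lie in 1 locus opposite Dnm3, so they are not independent cases. The number lower was 3 without cardiomyocyte library 2 and 2 without nonmyocyte library 1. Of the 8 host genes 3 had any polyadenylated RNA count, so for 5 the small RNA was the only readout.

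Opposite Dnm3, a dynamin, lie n413865 (chr1:164147753-164155681, plus strand) and n271629 (chr1:164151745-164154539, plus strand), each with 0 counts in all 6 polyadenylated RNA libraries and with 99.99% and 100% of exon bases shared. miR-199a-3p from this place (chr1:164148014-164148035) stood at 201, 399 and 667 CPM in cardiomyocyte small RNA libraries 1 to 3 and 3004, 2322 and 1534 CPM in nonmyocyte libraries 1 to 3. Its log2 fold change was -2.43 ± 0.58 (edgeR adjusted p = 0.0116), lost without cardiomyocyte library 2 or nonmyocyte library 1 (edgeR adjusted p 0.0562 and 0.0803). The same mature sequence comes from Mir199a-1 and Mir199b, so reads of the 3 genes cannot be told apart. miR-214-3p (chr1:164153569-164153590) has no second entry in the RefSeq table and stood at 20.1, 45.7 and 26.9 against 290.0, 232 and 428 CPM, a log2 fold change of -3.32 ± 0.58 (edgeR adjusted p = 0.00266). The 5p arms of both, miR-199a-5p (-3.06 ± 0.80) and miR-214-5p (-2.89 ± 0.75), were lower too (edgeR adjusted p = 0.0152 and 0.0152), calls lost without cardiomyocyte library 2, nonmyocyte library 1 or nonmyocyte library 2. The mature sequence of miR-199a-5p also comes from Mir199a-1, so its reads cannot be placed at this locus alone. Dnm3 itself was not called in polyadenylated RNA (0.32 ± 0.46).

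At Rtl1, an imprinted gene of retrotransposon origin, n289221 (chr12:110829746-110831061, plus strand) and n343021 (chr12:110828762-110831063, plus strand) lie wholly in the exons of the partner and had 0 counts. miR-433-3p from their exons held 8 counts over the cardiomyocyte libraries, at 12.1, 1.1 and 0.928 CPM. The nonmyocyte libraries 1 to 3 held 348, 224 and 84 counts, at 172, 215 and 570.1 CPM. The fractions were far apart (-6.93 ± 1.24, edgeR adjusted p = 0.0031). Rtl1 was lower in cardiomyocytes as well, at 0.194, 0.0518 and 0.097 against 1.42, 2.42 and 1.71 CPM (-4.19 ± 0.82, edgeR adjusted p = 0.000609).

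The arm that was higher was miR-215-5p, in n295857 (chr1:187136065-187137682, plus strand) inside Iars2, a mitochondrial tRNA synthetase gene. It stood at 237, 161 and 261 CPM in cardiomyocytes and 25.2, 20.1 and 27.1 CPM in nonmyocytes, with a log2 fold change of 3.20 ± 0.52 (edgeR adjusted p = 0.00193), while its host held 3 polyadenylated RNA counts in each fraction. The host of miR-130a, n287443 (chr2:84578293-84581802, minus strand), at the 3′ end of Ypel4, was lower in cardiomyocytes, at 1.16, 0.57 and 1.16 against 8.06, 4.93 and 4.19 CPM (-2.61 ± 0.51, edgeR adjusted p = 0.000566). The main arm, miR-130a-3p, was not called, at 1322, 2485 and 3469 against 1607, 1449 and 2199 CPM (0.47 ± 0.48, edgeR adjusted p = 0.452), and the rare arm, miR-130a-5p, was lower at 0, 0.551 and 1.55 against 7.89, 8.62 and 6.79 CPM (edgeR adjusted p = 0.00504). The difference between host and arm was not tested.

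miR-451a, a microRNA of red blood cells, lies in n265135 (chr11:77886150-77887019, plus strand), which had 0 polyadenylated RNA counts although 43.7% of its exon bases, not all, are shared. It stood at 281, 70.5 and 30.3 CPM in cardiomyocytes and 8.88, 5.75 and 197 CPM in nonmyocytes, overlapping between fractions and not called (0.98 ± 1.46, edgeR adjusted p = 0.588). Without nonmyocyte library 3, the shallowest, it was called (4.48, edgeR adjusted p = 0.00649). Of the 4 erythroid markers 2 were called higher in cardiomyocyte polyadenylated RNA, and their part in this arm was not tested. The arms of miR-689-2, in the abundant gene n265082, were not called, except miR-689-2-5p when cardiomyocyte library 3 was left out (2.64, edgeR adjusted p = 0.0202).

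**Figure D5:**
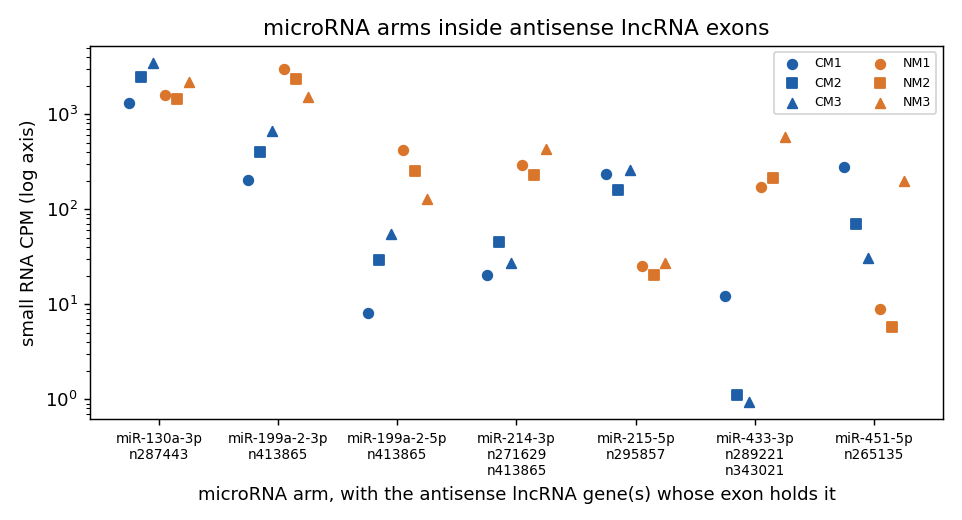
Small RNA level (CPM, log axis) of 7 microRNA arms that lie in exons of antisense lncRNA genes, named below each arm, in cardiomyocyte (CM, blue) and nonmyocyte (NM, orange) libraries 1 to 3. All nonmyocyte values lie above all cardiomyocyte values for the 4 arms of miR-199a, miR-214 and miR-433, the reverse holds for miR-215-5p, and the fractions overlap for miR-130a-3p and miR-451a.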

How the data were processed

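The deposited polyadenylated RNA table holds whole-number counts per gene, and the small RNA table whole-number counts per mature arm, neither normalised by the authors. The submitters' processing notes name TopHat 1.3.0 and Bowtie, HTSeq, edgeR and DESeq, without roles, and build mm9. How reads were counted is not given in the sources used here. The line of library totals in the small RNA table was left out. Members, spans, exon overlap and partners come from the deposited annotation; coding means any exon line of that class. The mm9 genome was not used here, so member sequences are not shown.

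Counts were filtered with filterByExpr (minimum count 10), scaled by TMM (trimmed mean of M values) and tested over the whole table with edgeR 4.0.16 (robust quasi-likelihood, two-sided) in R 4.3.3; the biological coefficient of variation was 0.251 for polyadenylated RNA and 0.639 for small RNA. Pairs were tested on 12 columns each (6 libraries of both genes) with terms for library, gene and gene by fraction, adjusted over the 376 pairs. A standard error is the estimate over the square root of its F, and is given for a difference only where called. CPM uses TMM-scaled library sizes. The share of counts was tested over libraries by an exact permutation test. Python 3.11.15 and matplotlib 3.10.9 made the plots.

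The members, the lists and the rule for named genes were chosen with earlier results of these data known. The rule names, per direction, the called members without overlap between fractions that have the largest change (6, at 5 CPM or more in each library of the higher fraction) or the highest level (6), the called pairs with the largest difference (5, with the same level), the 4 most abundant pairs of opposite direction, and 2 members per partner list. All tested members of the lists, the pair in Tecr, the pair of promoters and the microRNA arms were added with their values known. The alternatives tried were DESeq2 size factors, upper quartile and library totals for scaling, no filter, DESeq2 1.42.0, limma 3.58.1, a block for replicate number, leaving out each library, members with no shared base, and, chosen after seeing the data, members not within 5 kb after a coding gene. On simulated data 97.9% of 4-fold changes were recovered over 14295 genes, 97.6% over 274 pairs, and 86.2% of 8-fold changes over 326 small RNA arms. Of the calls 5.56%, 1.20% and 1.22% were wrong. Each simulation gave all genes 1 dispersion. The first changed 191 genes drawn from the whole table, fewer than differ in these data, so its 97.9% is not a share for antisense genes. The main tests did not pair libraries by replicate number. The result for 1 tested member of the partner lists is not reported here.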

Additional observations from a re-analysis of the deposited data

How the results depend on the processing

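Across the scalings by DESeq2 size factors and upper quartile, DESeq2 and limma voom, 133 to 145 antisense genes were higher and 86 to 95 lower, beside 138 and 85. No filter on low counts gave 237 higher, and keeping only genes with no exon base in another gene left 30 higher and 19 lower, with 13 and 10 pairs called. Without genes just after a coding gene on their strand 35 pairs were called higher. With library totals the share of calls that were higher fell to 43.9% from 61.9%, and over all genes it fell to 30.9% from 49.6%. Leaving out 1 library gave 121 to 168 higher, 76 to 134 lower, 34 to 66 pairs higher and 20 to 59 pairs lower. Whether the replicate numbers pair the libraries was not settled. Correlations of deviations were 0.205, 0.0541 and 0.139 for equal numbers and -0.214 to 0.0964 for unequal ones. Cardiomyocyte libraries 1 and 3 correlated best with the nonmyocyte library of their own number, and library 2 with nonmyocyte library 3 (0.0730). In small RNA the equal numbers gave 0.0476, -0.0990 and 0.243. With the replicate number as a block 130 genes were higher and 80 lower, and 56 and 26 pairs were called. The block made the difference called at n274916, n275427 and n295546 (1.76, 1.91 and 2.75, edgeR adjusted p 0.0425, 0.0272 and 0.00932), and the fold change at n295546 (2.19, 0.0356). It ended the calls of the fold changes at n267992 and n297377 (0.0752 and 0.053). The difference in share of counts, 0.228 percentage points, was 7.88 points of lncRNA counts, 0.130 points without n264818, and 0.209 to 0.264 points with 1 library left out.

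Of 65 named fold changes 16 changed their call under some setting, and of 60 named differences 25 did so or changed sign; the cause was not tested. No filter also ended the call of the fold change at n267992, n297377 and n414567, while library totals made n284716 called and limma voom made n284716, n295546 and n296035 called. Those that changed sign were not called. The fold change of n413804 was 0.061 with no filter and -0.074 to 0.15 with 1 library left out. The differences under limma on log2 ratios were -0.19 at n413555, 0.11 at n413609, -0.74 at n263902 and -0.36 at n279026. Under the block they were 0.019 at n413609, -0.13 at n263902 and -0.021 at n293300. With 1 library left out they ran from -0.054 to 0.83 at n279092, -0.26 to 0.52 at n289985, -0.39 to 0.67 at n413555, -0.39 to 0.21 at n413609, -0.059 to 0.15 at n415312, -0.21 to 1.65 at n416957, -1.003 to 2.21 at n263902, -0.42 to 0.41 at n293300 and -1.34 to 0.73 at n411906.

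In small RNA, library totals moved the median of all arms by -1.67 on the log2 scale, and the upper quartile by -0.37. The number of arms higher was 2 with no filter and 1 to 2 with 1 library left out, and the number lower was 2 to 7 then. With library totals miR-130a-3p changed by -1.19, miR-451a by -0.60 and miR-689-2-3p by -0.28; the latter changed by -0.58 in limma voom. The fold changes of miR-451a and miR-689-2-3p ran from -0.19 to 4.48 and -1.04 to 2.32 with 1 library left out. Genes with few counts set the limits here: 2183 antisense genes had a count but did not pass the filter, and a microRNA table with 83170 counts in its smallest library leaves few counts per arm.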

Other observations

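Counted further, 29 partners faced at least 2 tested antisense genes. In 5 of them every tested antisense gene was higher in cardiomyocytes and in 5 every one was lower. In 3 both directions were called, and in 9 none was called. Of the 415 tested antisense genes 138 were higher and 85 lower, and of all genes tested 31.6% were higher and 32.1% lower. Antisense genes opposite the same partner lie in the same locus, so they are not independent cases. The 29 partners were singled out after the values were seen. Beside Igf2r, Myh7 and Tecr, the partners whose tested antisense genes were all higher were Cradd, an adaptor of cell death signalling (log2 fold changes 2.89 and 6.25), and Zfp710, a zinc finger gene (2.20 and 3.75). Those whose tested antisense genes were all lower were Tpm4, a tropomyosin of nonmuscle cells (-5.07 and -1.85), Plxna1, a semaphorin receptor (-3.78 and -3.03), Clec2g, a lectin-like gene (-6.18 and -5.28), Col5a1 and Efcab4a. Both directions were called opposite Ncbp2, Stx3, a syntaxin of membrane fusion (-3.61 and 1.86), and Zc3h7a (-5.38 and 1.65). Traf3ip2, an adaptor of interleukin-17 signalling that fell by 2.90 on the log2 scale, faced 15 antisense genes, of which n279773, n283099 and n283466 were tested and not called (log2 fold changes -1.11, -1.38 and -1.14, edgeR adjusted p 0.167, 0.172 and 0.473).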
